A study of Homo sapiens with 12 samples.

Results

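JIMT1 cells grown as tumors in mice were compared with the same cells grown as a monolayer on plastic. JIMT1 is an established breast cancer cell line that carries the HER2 receptor, lacks the estrogen and progesterone receptors and does not respond to the HER2 antibody trastuzumab. The comparison used 4 of the 12 arrays in the series, 2 xenograft arrays and 2 arrays of the 2D culture (2D7d), chosen by their labels. All 10970 genes that passed a detection filter over the 12 arrays were tested. The 2D7d cells had grown for 7 days in medium with fetal bovine serum and insulin. For the xenografts, BALB/C-nude mice received JIMT1 cells, mixed with medium and Matrigel, in a fat pad, and the tumors grew for 43 days before RNA was taken. Matrigel is a gel of basement membrane proteins, and nude mice lack mature T cells. Where a difference was set against 3D growth in culture, 2 further arrays served, of cells grown on Matrigel for 7 days (MG7d), from which the gel was dissolved with the protease Dispase before RNA isolation and which received less serum. No agent or genetic change separated the groups.

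Cells in a monolayer adhere to a rigid surface with medium and oxygen on one side, while cells of a xenograft meet extracellular matrix, blood supply, hypoxic regions and the cells of the host. A tumor held in this way also contains mouse fibroblasts, vessels and macrophages. The array carries probes for human transcripts, and how much mouse RNA bound to them was not tested. In bulk RNA, fewer cells of a type and less RNA per cell cannot be told apart.

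The labelled line was checked by its defining genes. ERBB2, the HER2 receptor, had levels of 13.85 and 13.97 in the 2D7d replicates and 13.98 and 13.65 in the xenografts, on a log2 scale of normalized bead intensity that is used for every level below. The difference was -0.09 (standard error 0.18, adjusted p = 0.659) on the brightest probe, which stands for each gene here, and -0.86 on a dimmer probe of ERBB2. The epithelial keratins KRT8, KRT18 and KRT19 and the epithelial adhesion molecule EPCAM were detected on all 4 arrays, and the progesterone receptor gene was detected on none of them. ESR1, the estrogen receptor, passed the detection limit on all 4 arrays with levels between 6.12 and 6.84, which lie near the lowest detected signals (5.53 to 6.27 per array).

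**Figure D1:**
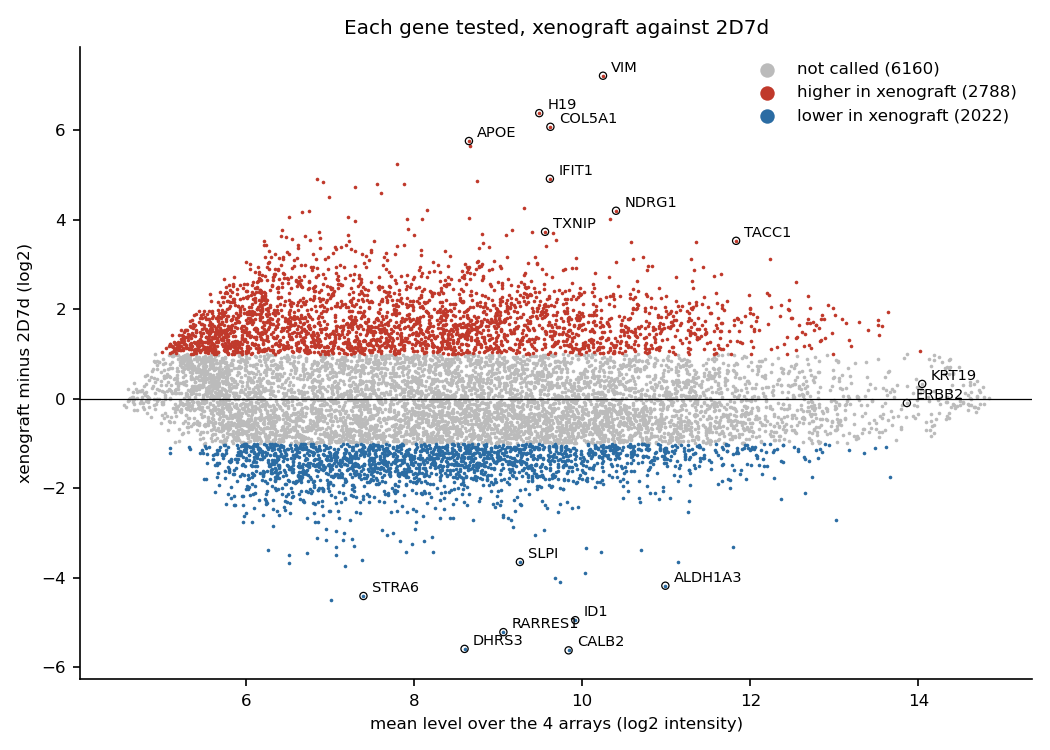
Each point is 1 of the 10970 genes, with its mean level over the 4 arrays (log2 intensity) on the horizontal axis and the xenograft minus 2D7d difference (log2) on the vertical axis. Red points are the 2788 genes called higher and blue points the 2022 called lower in the xenografts, with VIM at the top (7.21) and CALB2 and DHRS3 at the bottom, while ERBB2 lies at -0.09.

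The 2 conditions differed across much of the genome. A gene was called where limma's adjusted p was under 0.05 and the levels differed at least 2-fold, which held for 4810 of the 10970 genes (43.8%), 2788 of them higher in the xenografts (25.4%) and 2022 lower (18.4%). Counts of list members called against 2D7d, given below, are to be read beside these shares of all genes. The arrays of the 2 groups did not overlap for any called gene. Over all genes, both xenograft arrays stood above both 2D7d arrays for 4794 and below them for 4750. By the fitted difference 769 genes rose and 244 fell by at least 4-fold, and 119 rose and 38 fell by at least 8-fold. These numbers include genes undetected in 1 group, whose fitted fold can exceed the bound (DCN, 9.03-fold with a bound of 3.15). They therefore do not settle whether the rises were the larger changes. In 789 of the genes called higher, both xenograft arrays and neither 2D7d array detected the gene, and a lower bound of the fold could be set. The same held in the other direction for 142 of those called lower. Called genes too near the detection limit for a bound, such as FN1, are not in these counts. For such genes only a lower bound of the fold is given. The 2D7d arrays detected 13952 and 14784 probes and the xenograft arrays 17559 and 17316. The 2D7d replicates were also less alike, with 216 genes at least 2-fold apart against 15 between the xenografts. When each array was centred on its median instead of quantile-normalized, 67.4% of the called genes were higher in the xenografts in place of 58.0%, and the median gene moved by 0.171.

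VIM, the intermediate filament vimentin of mesenchymal cells, showed the largest difference of all genes tested. Its levels were 6.67 and 6.61 in 2D7d and 13.87 and 13.84 in the xenografts, a rise of 7.21 (standard error 0.16, adjusted p = 4.89e-06), or 148.5-fold. The replicates of each group were nearly equal. COL5A1, a fibrillar collagen chain, rose from 6.76 and 6.41 to 12.75 and 12.57, by 6.07 (adjusted p = 1.09e-05). GPNMB, a transmembrane glycoprotein of lysosomes and the cell surface, rose from 7.11 and 7.25 to 11.52 and 11.35. MGP, a secreted inhibitor of calcification that binds BMPs, rose from 8.65 and 7.99 to 12.35 and 12.31. Both groups were well apart in each of these genes. Among the 15 largest rises of genes detected on all 4 arrays were also DPYSL3, a cytoskeletal regulator of neurite growth (3.76), the serine protease PRSS23 (3.73), the adhesion receptor CXADR (3.68), SPTSSA, a subunit of the enzyme that starts sphingolipid synthesis (3.66), and the centrosome-associated TACC1 (3.53).

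Several genes below detection in both 2D7d arrays were prominent in the tumors. APOE, the apolipoprotein of lipid transport, had 5.71 and 5.84 in 2D7d and 11.46 and 11.61 in the xenografts, at least 41.3-fold higher (adjusted p = 9.21e-06). KCNK12, a member of the family of 2-pore potassium channels, was at least 19-fold higher and S100A8, a subunit of calprotectin, at least 17.3-fold higher. CD36, a receptor for fatty acids and thrombospondin, was at 4.44 and 4.56 against 9.38 and 9.30, at least 9.07-fold higher. SLCO2A1, the prostaglandin transporter, was at least 8.80-fold higher, KANK4 at least 8.63-fold and CASP14, the caspase of keratinocyte cornification, at least 8.50-fold. None of these genes had a 2D7d array above its detection limit.

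**Figure D2:**
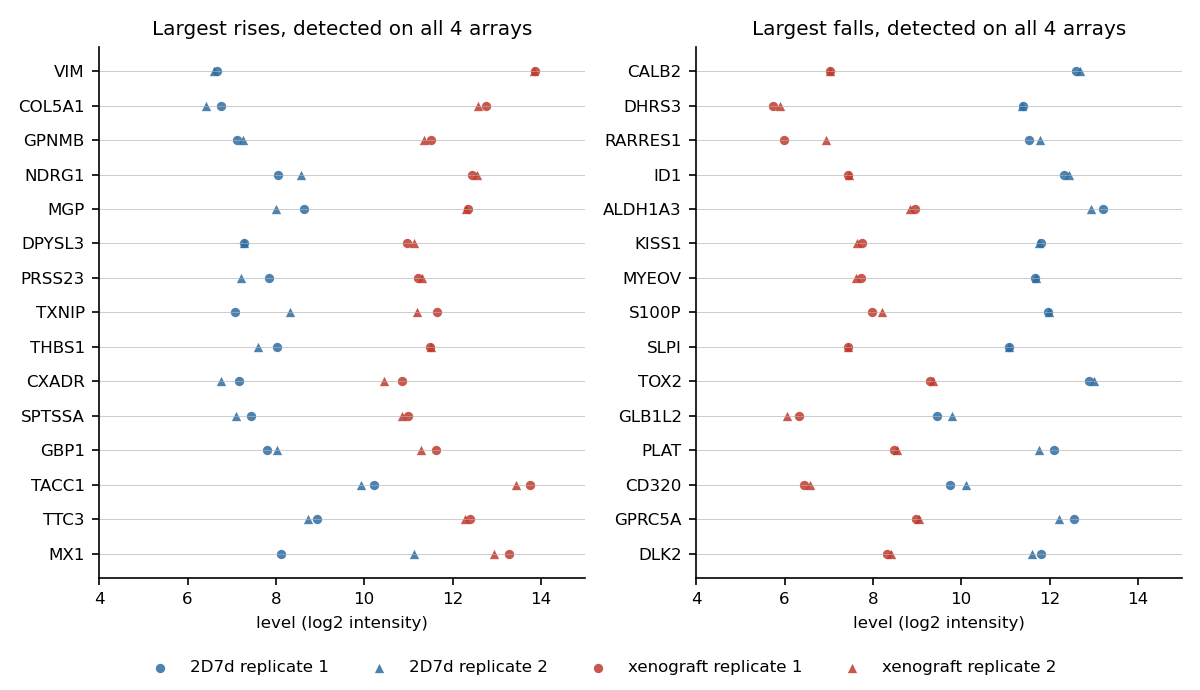
Levels (log2 intensity, horizontal axis) of the 15 genes with the largest rises (left) and the 15 with the largest falls (right) among called genes detected on all 4 arrays; each point is 1 array. The groups are separate in every gene, and the 2D7d replicates lie far apart only for MX1 (8.10 and 11.12) and TXNIP (7.06 and 8.32).

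The largest falls held a calcium-binding protein, retinoid genes and an inhibitor of differentiation. CALB2, calretinin, fell from 12.61 and 12.69 in 2D7d to 7.03 and 7.03 in the xenografts, a difference of -5.62 (standard error 0.16, adjusted p = 9.21e-06). ID1, which blocks basic helix-loop-helix transcription factors and is a target of BMP signaling, fell from 12.33 and 12.45 to 7.42 and 7.47 (-4.94). KISS1, the gene of kisspeptin and a suppressor of metastasis, fell from 11.81 and 11.76 to 7.75 and 7.64 (-4.09). The xenograft levels of all these genes lay far under both 2D7d levels. MYEOV (-4.00), the calcium-binding S100P (-3.88), the secreted protease inhibitor SLPI (-3.64), the transcription factor TOX2 (-3.64), the plasminogen activator PLAT (-3.43) and GPRC5A, an orphan receptor induced by retinoic acid (-3.37), followed. Of genes that no xenograft array detected, COL13A1, a transmembrane collagen, was at least 13.1-fold lower, the epithelial transcription factor FOXQ1 at least 11.3-fold lower and the kallikrein protease KLK10 at least 9.66-fold lower.

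Most interferon-stimulated genes were higher in the xenografts. These genes encode antiviral effectors and are switched on through interferon receptors and the interferon-stimulated response element in their promoters. Of 40 measured members 32 were called higher (80.0%, against 25.4% of all genes) and 0 lower (37 higher and 1 lower at an unadjusted p under 0.05 in limma), with a median difference of 2.02, or 1.88 with undetected members at their bound, against 0.01 over all genes. Both xenograft arrays stood above both 2D7d arrays in 37 of the 40. The 8 members not called were BST2, DTX3L, ISG20, LGALS3BP, OAS1, OASL, USP18 and XAF1. For OAS1 the brightest probe differed by 0.70, while its 2 dimmer probes, each detected on 1 of the 2D7d arrays, passed the call (2.14 and 2.57).

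The promoters of the 4 called members with the largest rises and a matching element before the start site are shown from near their first match up to the base before the start site. They are RefSeq sequences of GRCh38.p14, 5′ to 3′ on the strand of the gene (the plus strand in each), and capitals mark the core of the interferon-stimulated response element, that is GAAA, any 2 bases and GAAA, or its reverse complement.
IFIT1 (chr10:89392467-89392622): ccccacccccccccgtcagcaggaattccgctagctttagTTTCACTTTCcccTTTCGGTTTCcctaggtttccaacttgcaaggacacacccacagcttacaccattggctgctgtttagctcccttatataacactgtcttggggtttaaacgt
IFI27 (chr14:94110588-94110735): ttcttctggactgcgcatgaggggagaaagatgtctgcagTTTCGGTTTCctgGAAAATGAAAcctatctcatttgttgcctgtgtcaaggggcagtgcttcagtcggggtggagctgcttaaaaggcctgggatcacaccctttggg
IFIT3 (chr10:89327801-89327996): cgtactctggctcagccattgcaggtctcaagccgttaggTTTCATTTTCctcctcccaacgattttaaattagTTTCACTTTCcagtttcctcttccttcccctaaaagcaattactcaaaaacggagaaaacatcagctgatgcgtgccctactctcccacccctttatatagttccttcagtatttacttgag
IFI44 (chr1:78649689-78649788): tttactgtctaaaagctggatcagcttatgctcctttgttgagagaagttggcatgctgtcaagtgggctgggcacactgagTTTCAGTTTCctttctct

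The core was searched on both strands in windows of 300 bases, 250 before and 50 after each start site, with overlapping matches counted. It was present in 18 of the 26 called members with a promoter in the table (69.2%) and in 4 of the 6 members not called (66.7%), against 2.91% of the tested genes and 3.65% of all RefSeq promoters. The called and the uncalled members thus held it at a similar share. IFIT1, IFI27 and IFIT3 hold a pair of matches each and IFI44 a single match. A match describes the letters and not the binding of a factor.

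The 2D7d replicates stood apart in many interferon-stimulated genes. IFIT1, which binds viral RNA lacking the host cap, had 5.89 and 8.43 in 2D7d, detected on 1 of the 2 arrays, and 12.38 and 11.77 in the xenografts, a difference of 4.91 (standard error 0.71, adjusted p = 0.000716). IFI27 had 4.61 and 8.03 against 11.30 and 11.04 (4.85), and OAS2, a sensor of double-stranded RNA, 4.71 and 8.56 against 10.98 and 10.36 (4.03, adjusted p = 0.0102). The GTPase MX1 had 8.10 and 11.12 against 13.28 and 12.93 (3.50, adjusted p = 0.0065). In all of these the second 2D7d replicate lay between the first and the xenografts. This replicate was the higher of the 2D7d arrays in 35 of the 40 members, and the list's median level was 6.22 and 7.58 in 2D7d and 10.01 and 9.57 in the xenografts.

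Other members lay far below the xenografts on both 2D7d arrays. IFIT3, at 5.09 and 5.24 against 10.36 and 9.56, was at least 13.9-fold higher, and IFI44L, at 4.54 and 4.77 against 8.91 and 8.79, at least 6.45-fold higher, although a dimmer probe of IFI44L was not called (adjusted p = 0.113). The guanylate-binding protein GBP1 rose from 7.79 and 8.03 to 11.63 and 11.29 (3.55, adjusted p = 4.44e-05) and SAMD9 from 7.13 and 7.02 to 10.65 and 10.47 (3.49). Both kept their calls without any single array. IFI44 was below detection on both 2D7d arrays (4.71 and 5.91) and reached 9.94 and 9.87, at least 13.4-fold higher.

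Leaving out the first or the second 2D7d replicate gave the list a median of 1.64 or 2.57, and between 28 and 35 members were called higher when any single array was left out. MX1 differed by 1.99 without the first and by 5.0 without the second 2D7d replicate. IFIT1, IFI27, OAS2 and IFITM1, a membrane protein that restricts virus entry, were undetected on the first 2D7d array, and without it they differed by 3.64, 3.15, 2.10 and 1.25. ISG15, a ubiquitin-like modifier (11.17 and 12.53 in 2D7d, 13.43 and 13.06 in the xenografts), lost its call without the first 2D7d replicate (0.71) and without the first xenograft (1.20).

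**Figure D3:**
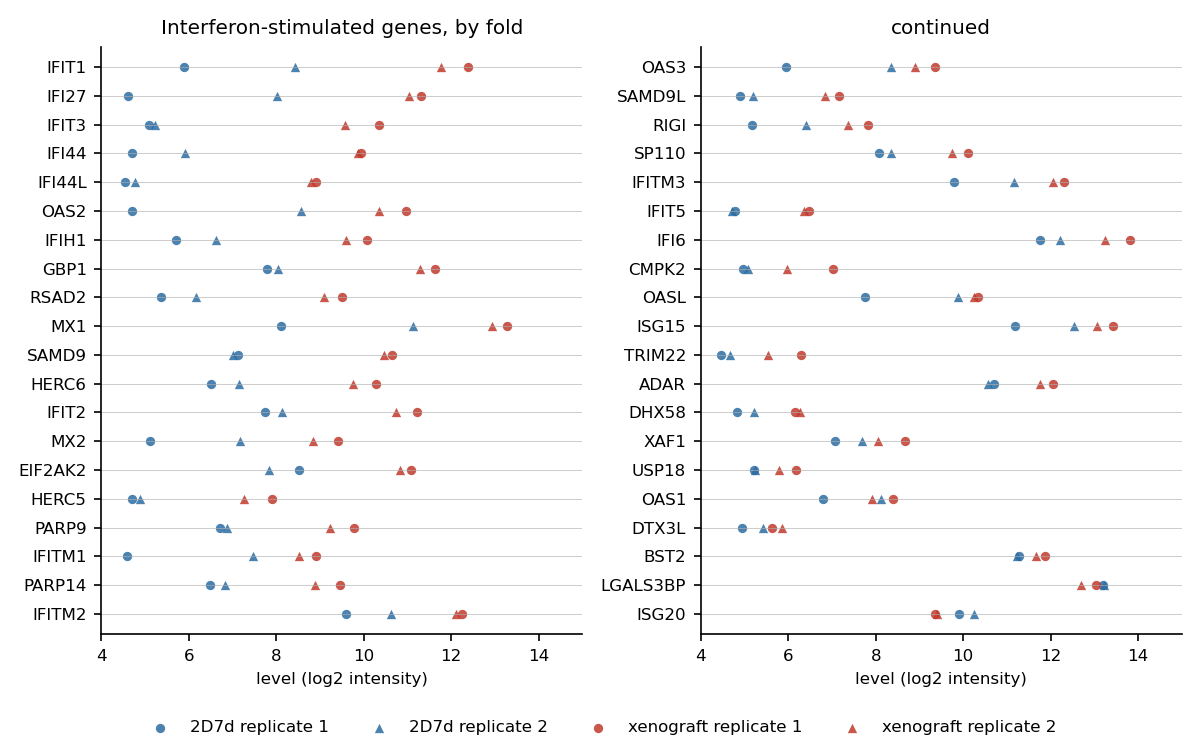
Levels (log2 intensity, horizontal axis) of the 40 measured interferon-stimulated genes on the 2D7d and xenograft arrays, ordered by the difference from IFIT1 (4.91) downward; each point is 1 array. The second 2D7d replicate (blue triangles) lies to the right of the first in 35 genes, and both xenograft arrays lie to the right of both 2D7d arrays in 37.

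The signaling genes of the pathway moved less uniformly. Of 16 measured interferon receptors, kinases and factors 5 were higher and 2 lower (31.2% and 12.5%, against 25.4% and 18.4% of all genes). IFNGR1, the ligand-binding chain of the interferon gamma receptor, rose from 9.89 and 9.62 to 12.55 and 12.38 (2.71, adjusted p = 5.56e-05). IRF9, a DNA-binding factor of interferon signaling, rose from 7.81 and 9.21 to 11.05 and 10.81 (2.42), by 1.72 without the first 2D7d replicate and by 3.12 without the second. JAK2 was detected in the xenografts and not in 2D7d. JAK1, at 7.41 and 6.01 against 9.24 and 9.14 and detected on 1 of the 2D7d arrays, rose by 2.49, or by 1.79 without the second 2D7d replicate, which did not detect it. IFNLR1, the receptor of the lambda interferons, fell from 8.57 and 8.54 to 5.51 and 5.67 (-2.96), and SOCS3, a feedback inhibitor of JAK kinases, from 8.23 and 8.10 to 5.75 and 6.18 (-2.20, and -0.75 on a dimmer probe). Receptor chains thus stood on both sides.

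Genes of MHC class I antigen presentation, many of which respond to interferon gamma, did not rise as a group. Of 18 measured 2 were higher and 4 lower, with a median of -0.40. HLA-B rose from 7.81 and 8.62 to 10.76 and 10.29 (2.31), and ERAP2, which trims peptides for loading, from 12.36 and 12.22 to 14.08 and 13.90 (1.70). B2M differed by 0.92, under 2-fold, and by 1.13 on a dimmer probe, which passed the call. The immunoproteasome subunits PSMB9 (-2.19) and PSMB8 (-1.57) and the peptide transporter TAP1 (-1.33) fell. HLA genes are similar in sequence, and probes may share transcripts of several of them.

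TGF-beta ligands and target genes were higher in 12 and lower in 3 of 19 measured (63.2% and 15.8%), with a median of 1.21. TGF-beta signals through SMAD proteins and in breast epithelium limits proliferation while it induces matrix and mesenchymal genes. THBS1, thrombospondin, an activator of latent TGF-beta, rose from 8.02 and 7.59 to 11.48 and 11.52 (3.70, adjusted p = 4.18e-05). PMEPA1, a feedback inhibitor of the pathway, rose from 10.06 and 9.72 to 12.67 and 12.87 (2.88), TGFBI, a secreted adhesion protein, from 11.43 and 11.07 to 13.62 and 14.07 (2.60), and TAGLN, the actin-binding transgelin, from 10.91 and 10.74 to 12.83 and 13.44 (2.31). Each stood above 2D7d on both arrays. Of another list, ITGB6, the integrin chain that releases TGF-beta from its latent complex, was at 4.55 and 4.43 against 8.59 and 8.49, at least 5.21-fold higher. The receptor TGFBR2 rose by 1.98. LTBP3, a latent TGF-beta binding protein, fell from 11.25 and 11.21 to 9.46 and 9.52 (-1.74). ENG (-2.35) and CCN2 (-1.32) of this list were also called lower.

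Mesenchymal genes did not move together. Of 17 measured 6 were higher and 3 lower, with a median of 0.16, or -0.02 without the second 2D7d replicate. SPARC, a matricellular protein, rose from 10.34 and 10.06 to 12.92 and 12.95 (2.73) and the transcription factor SNAI2 from 10.07 and 9.18 to 11.31 and 11.30 (1.68). CDH2, N-cadherin, differed by 1.12 and lost its call without the second 2D7d replicate (0.68) and without the second xenograft (0.95). FN1, fibronectin, was undetected in 2D7d and at 5.73 and 5.73 in the xenografts, too near the detection limit for a fold. The receptor kinase AXL fell from 12.07 and 11.93 to 10.87 and 10.90 (-1.11).

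Collagens and the enzymes that modify them split, with 8 higher and 5 lower of 22 measured. Beside COL5A1, COL12A1 rose from 8.26 and 8.05 to 10.87 and 10.12 (2.34) and COL7A1, the anchoring fibril collagen of skin, from 8.28 and 8.28 to 10.24 and 10.54 (2.11). LOX, the oxidase that crosslinks collagen, was at 4.45 and 4.46 against 8.05 and 7.90, at least 3.52-fold higher. PLOD2, a lysyl hydroxylase, rose from 11.23 and 10.91 to 13.41 and 13.34 (2.31) and the prolyl hydroxylase subunit P4HA1 by 1.99. LOXL1, a relative of LOX, fell from 8.97 and 8.76 to 6.94 and 7.13 (-1.83), COL4A2 of basement membranes by 1.26 and PLOD3 by 1.15. COL1A1, the main collagen of fibroblasts, had 6.36 and 6.96 in 2D7d and 6.87 and 7.26 in the xenografts (0.40, adjusted p = 0.181), and these ranges overlapped. Contractile and actin-binding genes were higher in 7 and lower in 1 of 20, with caldesmon, CALD1, from 9.50 and 8.78 to 12.33 and 12.29 (3.17).

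Of 4 measured fibroblast markers 3 were called higher, and COL1A1 was not. Of 9 fibroblast markers 4 were detected in the xenografts (COL1A1, DCN, LUM and FAP) against 1 in 2D7d, and their summed linear intensity was 293.3 and 364.2 in 2D7d and 643.2 and 800.7 in the xenografts. DCN, decorin, was at least 3.15-fold higher and LUM, lumican, at least 1.69-fold higher, while COL1A2, PDGFRA, PDGFRB and THY1 were detected on none of the 4 arrays. Of 9 macrophage markers CD68 and AIF1, the latter detected on 1 of the 2D7d arrays, rose (1.12 and 2.07) and CD14 fell (-1.5), a dimmer probe of CD68 differed by -0.69 (adjusted p = 0.0365), CD163, MRC1, LYZ and TYROBP were on no array, and the sums were 975.9 and 988.1 against 1351 and 1382. The endothelial sums were 405.8 and 459.2 against 295.9 and 305.5, with 6 of 9 markers, among them CDH5, VWF and KDR, on no array. ESAM, of endothelial junctions, was at least 3.53-fold lower, and TEK, the angiopoietin receptor, undetected in 2D7d and at 5.97 and 6.16 in the xenografts, was called higher but lay too near the detection limit for a fold. ACTA2, the smooth muscle actin of myofibroblasts and pericytes, was detected in the xenografts at 6.24 and 6.63, at least 1.21-fold higher, and 6 of 7 markers of that list were on no array. Adipocyte markers were undetected but for LEP, which is also induced by hypoxia, and no T, B or NK cell marker was detected on both xenograft arrays. The part of host cells in the changes was not tested.

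Epithelial genes were lower in 11 and higher in 3 of 32 measured (34.4% and 9.38%), with a median of -0.41. CLDN7, a tight junction claudin, fell from 12.52 and 12.52 to 10.05 and 9.95 (-2.52, adjusted p = 5.41e-05), and ELF3, an epithelial ETS factor, from 10.04 and 10.86 to 8.08 and 7.82 (-2.50). ST14, the membrane protease matriptase, fell from 10.80 and 11.14 to 8.89 and 8.46 (-2.30). Claudin, ETS factor and protease were thus lower on both xenograft arrays. The 3 higher members were of desmosomes, the junctions that anchor keratins, with DSP rising by 2.08, DSG2 by 1.90 and DSC2, detected on 1 of the 2D7d arrays, by 1.61. CDH1, E-cadherin, had 12.44 and 11.72 against 13.16 and 12.90 (0.95, under 2-fold), and KRT19 and KRT8 differed by 0.33 and -0.48 with adjusted p of 0.0997 and 0.0577. KRT18 fell by 1.17 (adjusted p = 0.00412), a call that was lost without the second 2D7d replicate (-0.85).

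Extracellular proteases and their inhibitors made 1 of the lists with most falls, with 17 lower and 6 higher of 32 measured (53.1% and 18.8%) and a median of -1.15. PLAT, SLPI, KLK10 and the rising PRSS23, named above, belong to it. The trypsin PRSS3 fell from 10.85 and 11.06 to 7.77 and 8.06 (-3.04) and the kallikrein KLK6 from 14.28 and 14.47 to 11.63 and 11.72 (-2.70, and -0.94 on a dimmer probe). TIMP3, an inhibitor of metalloproteases, fell from 11.86 and 11.31 to 9.38 and 9.38 (-2.21), while TIMP1 and TIMP2 differed by -0.48 and 0.24. In the other direction the membrane proteases that shed receptors and growth factors rose, ADAM9 from 7.95 and 7.10 to 10.84 and 10.55 (3.17), ADAM10 from 7.22 and 6.30 to 9.64 and 9.56 (2.84) and ADAM17 by 1.37. The kallikreins and PRSS3 were thus lower and the 3 ADAM proteases higher.

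Genes of the calcium-binding EF-hand and S100 family were lower in 7 and higher in 1 of 13 measured (53.8% and 7.69%), with a median of -1.48. The single rise was S100A8, whose xenograft levels were 10.47 and 10.08. Beside CALB2 and S100P, S100A3 fell from 8.81 and 9.16 to 6.26 and 6.65 (-2.53) and S100A14 from 9.26 and 9.28 to 7.46 and 7.70 (-1.69). S100A4, often used as a mesenchymal marker, had 10.52 and 10.54 against 10.83 and 10.55 (0.16, adjusted p = 0.445). A dimmer S100A4 probe differed by 0.84, under 2-fold, and S100A6 differed by -0.40.

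Retinoid metabolism and response genes were lower in 7 and higher in 1 of 15 measured (46.7% and 6.67%). Vitamin A, or retinol, is taken up by cells through STRA6 and oxidized to retinaldehyde. ALDH1A enzymes oxidize retinaldehyde to retinoic acid, and DHRS3 reduces retinaldehyde back to retinol. Retinoic acid acts through the receptor RARA on targets such as RARRES1. DHRS3 fell from 11.40 and 11.39 in 2D7d to 5.73 and 5.89 in the xenografts (-5.58, adjusted p = 9.21e-06). RARRES1 fell from 11.54 and 11.79 to 5.98 and 6.93 (-5.21) and ALDH1A3 from 13.21 and 12.95 to 8.96 and 8.85 (-4.17). STRA6 had 9.57 and 9.62 in 2D7d and was detected on 1 of the xenograft arrays, at 4.78 and 5.61. Uptake, synthesis, reduction and target gene were therefore all lower on both xenograft arrays. The binding protein CRABP2 had 7.41 and 7.85 against 8.45 and 8.35 (0.77, under 2-fold). RARA rose by 1.05, a call that was lost without the first 2D7d replicate (0.86) or the first xenograft (0.95).

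ID1 was 1 of the 2 genes called lower among the ID genes and BMP signaling, of which 4 of 15 were higher. These shares were 26.7% and 13.3%, against 25.4% and 18.4% of all genes. ID3 had 10.96 and 11.62 against 11.27 and 11.43 (0.06, adjusted p = 0.828), with overlapping ranges. ID2, detected on 1 of the 2D7d arrays and on no xenograft array, differed by -0.9997 and SMAD6 by -0.88, both under 2-fold. The BMP receptor BMPR2 rose from 7.25 and 7.13 to 10.08 and 10.16 (2.93) and the signal transducer SMAD5 from 7.21 and 6.99 to 9.71 and 9.84 (2.67). BMP7, a ligand detected on 1 of the 2D7d arrays, rose from 5.92 and 6.47 to 8.56 and 8.55 (2.36). The receptor, transducer and ligand were thus higher where their target ID1 was lower.

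Receptors, ligands and regulators of the ERBB family were lower in 11 and higher in 2 of 28 measured (39.3% and 7.14%), with a median of -0.58. This family signals through the MAP kinase pathway, which induces its own ligands and its feedback inhibitors. The ETS factor ETV4 fell from 10.50 and 10.99 to 8.34 and 8.41 (-2.37), the phosphatase DUSP5 from 11.06 and 10.76 to 8.41 and 8.71 (-2.35) and the feedback inhibitor SPRY4 from 8.01 and 7.72 to 5.99 and 6.11 (-1.82). HBEGF, a ligand of EGFR, fell from 11.38 and 10.51 to 9.03 and 9.24 (-1.81) and the adaptor GRB7 from 11.70 and 11.72 to 10.47 and 10.51 (-1.22). Targets, inhibitors and a ligand thus stood lower in both tumors. Of the receptors EGFR differed by -0.58, ERBB3 by -0.37 and ERBB2 by -0.09, none of them called on the brightest probe, but a dimmer ERBB3 probe, detected on all 4 arrays, fell by 1.75 (adjusted p = 0.000658). ERRFI1, an inhibitor of EGFR, rose by 1.28, but by 0.87 without the second 2D7d replicate.

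**Figure D4:**
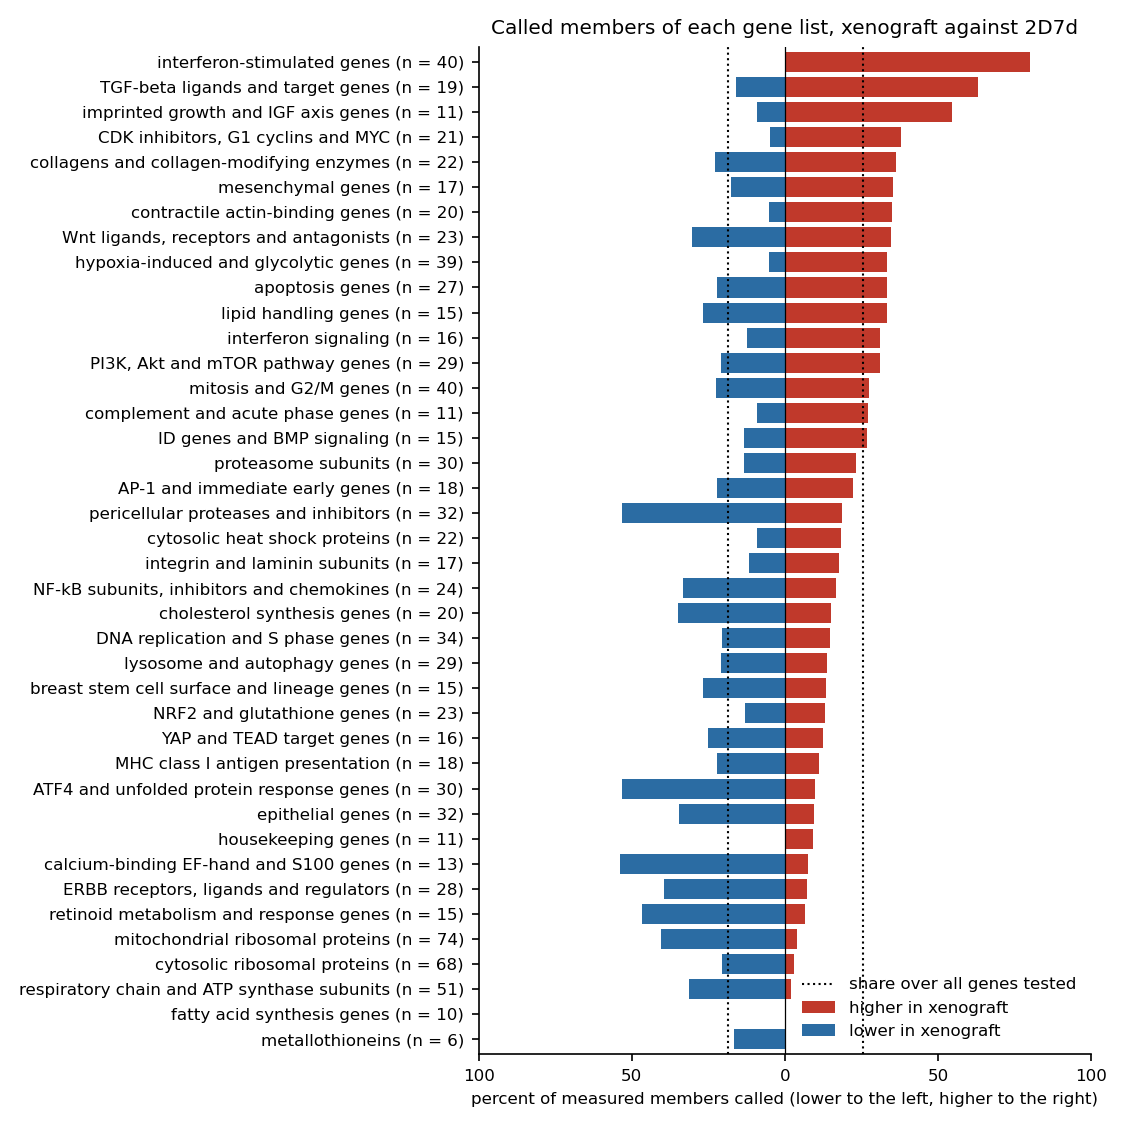
Share of the measured members of each gene list called lower (blue, to the left) or higher (red, to the right) in the xenografts, in percent, with the number of measured members in brackets; dotted lines mark the shares over all genes tested (18.4% lower, 25.4% higher). The interferon-stimulated genes reach 80.0% higher, and the EF-hand and S100, protease and ATF4 lists pass 50 percent lower.

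Genes induced by hypoxia and of glycolysis were higher in 13 and lower in 2 of 39 measured (33.3% and 5.13%), with a median of 0.41. In low oxygen the HIF factors escape hydroxylation and raise glucose uptake, glycolysis and vessel growth. NDRG1, a HIF target, rose from 8.05 and 8.56 to 12.44 and 12.56 (4.20, adjusted p = 3.88e-05). STC1, stanniocalcin, rose from 5.56 and 6.62, with 1 of these arrays above detection, to 10.15 and 10.05 (4.01), and SLC2A3, a glucose transporter, from 9.49 and 9.12 to 12.20 and 12.34 (2.96). EGLN3, the hydroxylase that limits HIF, was at 4.73 and 4.80 against 7.38 and 7.71, at least 2.61-fold higher, and BNIP3 of mitophagy rose by 1.41. The glycolytic enzymes ALDOA, PGK1, ENO1 and LDHA differed by 0.13, 0.32, -0.32 and 0.04 with none called, SLC2A1 by -0.78 and VEGFA by -0.98, or by -1.42 on a dimmer probe that passed the call. Single HIF targets thus rose many-fold while these glycolytic enzymes stayed under 2-fold. TXNIP, an inhibitor of glucose uptake and thioredoxin, rose from 7.06 and 8.32 to 11.66 and 11.19 (3.73), or by 3.10 without the first and 4.36 without the second 2D7d replicate.

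Imprinted growth genes and the IGF axis were higher in 6 and lower in 1 of 11 measured. H19, an imprinted noncoding RNA of fetal tissue, had 5.48 and 7.12 in 2D7d, with 1 array above detection, and 12.74 and 12.62 in the xenografts (6.38, adjusted p = 6.89e-05), which was 5.56 without the first 2D7d replicate, where it was undetected. IGFBP5, which binds insulin-like growth factors, rose from 5.71 and 6.37 to 10.34 and 10.17 (4.21), again with 1 of the 2D7d arrays above detection. IGF2BP3, an RNA-binding protein of fetal tissue, rose from 7.36 and 7.21 to 8.98 and 9.23 (1.82). IGFBP6 fell from 12.07 and 11.97 to 10.30 and 10.31 (-1.72). Both binding proteins moved beyond the spread of the replicates, in opposite directions.

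Genes controlled by ATF4 and by the unfolded protein response were lower in 16 and higher in 3 of 30 measured (53.3% and 10.0%), with a median of -1.18, or -0.81 without the first 2D7d replicate. ATF4 raises amino acid synthesis and uptake when amino acids are short or proteins misfold. CTH, which makes cysteine, fell from 9.85 and 9.35 to 6.35 and 6.34 (-3.25, adjusted p = 5.41e-05). CHAC1, which degrades glutathione, was detected in 2D7d at 7.59 and 7.42 and on neither xenograft array, at least 3.88-fold lower, and SLC7A11, the cystine importer of the glutathione list, at least 3.32-fold lower. The transporter chain SLC3A2 fell from 13.58 and 13.38 to 11.19 and 11.29 (-2.24), its partner SLC7A5 by 1.74 and the mitochondrial serine enzyme SHMT2 by 1.79. Amino acid synthesis and uptake were thus lower on both tumor arrays. ATF4 itself had 13.94 and 13.71 against 13.11 and 13.21 (-0.67, under 2-fold), while 2 dimmer probes gave -1.85, which passed the call, and 0.01, and the chaperone HSPA5 differed by 0.35. HSP90B1, a chaperone of the endoplasmic reticulum, rose from 12.19 and 11.52 to 13.27 and 13.18 (1.37). STC2, a stanniocalcin listed among the hypoxia genes, fell by 1.54, but by 0.85 without the first and 2.23 without the second 2D7d replicate.

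The mitochondrial lists were shifted downward. Of 74 mitochondrial ribosomal proteins 30 were lower and 3 higher (40.5% and 4.05%, median -0.72), and both xenograft arrays lay under both 2D7d arrays for 55 of them. Of 51 subunits of the respiratory chain and ATP synthase 16 were lower and 1 higher (31.4% and 1.96%, median -0.67), and 30 were lower with each array centred on its median. NDUFB9 of complex I fell from 12.54 and 12.26 to 9.92 and 10.33 (-2.27) and COX6A1 of complex IV from 13.24 and 13.08 to 11.29 and 11.52 (-1.76), while NDUFS4 rose from 9.78 and 9.64 to 11.04 and 11.10 (1.36). MRPL28 (-2.09), MRPS2 (-2.0) and MRPL2 (-1.95) had the largest falls of the mitochondrial ribosome and MRPS10 rose by 1.34. Single members thus moved against the direction of most calls. Of 68 cytosolic ribosomal proteins 14 were lower and 2 higher (20.6% and 2.94%), a share of falls near that of all genes.

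Proliferation genes did not move in 1 direction. Of 40 genes of mitosis 11 were higher and 9 lower (27.5% and 22.5%, against 25.4% and 18.4% of all genes). Of 34 genes of DNA replication 5 were higher and 7 lower (14.7% and 20.6%). PLK1, a mitotic kinase, fell from 9.37 and 9.74 to 7.67 and 7.60 (-1.92) and its neighbour in function AURKB by 1.75, while the spindle motor KIF11 rose from 7.38 and 7.29 to 9.41 and 9.15 (1.95) and the checkpoint kinase TTK by 1.77. With all 12 arrays in the fit, 2 mitotic genes were called in each direction. Cyclin CCNA2 and the replication clamp PCNA differed by 0.21 and 0.63 with neither called. In the list of CDK inhibitors, G1 cyclins and MYC 8 of 21 were higher and 1 lower. CDK6, a kinase of G1, rose from 6.80 and 6.43 to 9.05 and 9.01 (2.42), the pocket protein RBL2 from 7.28 and 6.16 to 9.62 and 9.29 (2.73) and the inhibitor CDKN2B from 7.57 and 6.53 to 9.21 and 9.62 (2.37). CDK6, RBL2 and CDKN2B were thus higher, while the inhibitor CDKN1B differed by -0.05 (adjusted p = 0.78). MYC fell from 11.99 and 11.88 to 10.94 and 10.53 (-1.20) and by 0.99, just under 2-fold, without the second xenograft. CDKN1A, the inhibitor p21, differed by 0.19 (adjusted p = 0.39).

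Components of the PI3K, Akt and mTOR pathway were higher in 9 and lower in 6 of 29 measured. These shares (31.0% and 20.7%) stood near the 25.4% and 18.4% of all genes. PIK3R1, the regulatory subunit, was detected on the xenograft arrays alone, at 8.90 and 8.75, at least 6.35-fold higher, and the catalytic PIK3CB rose by 2.31. EIF4EBP1, the translation repressor that mTOR phosphorylates, fell from 9.98 and 10.24 to 7.61 and 7.90 (-2.36), and the mTOR partners RPTOR (-1.42) and MLST8 (-1.38) fell too. PIK3R1 and PIK3CB were thus higher and RPTOR and MLST8 lower, while AKT1 differed by -0.15. Wnt ligands, receptors and antagonists were higher in 8 and lower in 7 of 23 (34.8% and 30.4%). AXIN2, a target and inhibitor of the pathway, was at 4.76 and 4.72 against 7.83 and 7.74, at least 3.08-fold higher, and beta-catenin, CTNNB1, rose by 2.02. WNT5B fell from 12.34 and 11.74 to 9.84 and 9.75 (-2.25) and WNT7B by 1.68, though a dimmer WNT7B probe was not called (-0.49).

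Lipid genes were called in both directions. Cholesterol synthesis was lower in 7 and higher in 3 of 20, with DHCR7, a last step to cholesterol, from 11.87 and 11.70 to 9.51 and 9.64 (-2.21) and EBP from 11.90 and 11.98 to 9.87 and 10.09 (-1.96). The 3 higher members were HMGCS1 of the early pathway, which rose from 9.41 and 8.98 to 10.92 and 11.22 (1.87), and the late enzymes HSD17B7 (1.87) and SC5D (1.11, or 0.98 without the second 2D7d replicate). Of 10 genes of fatty acid synthesis none was called (1 higher and 1 lower at an unadjusted p under 0.05 in limma), and FASN differed by -0.99 and SCD by 0.20. ABCA1, which exports cholesterol to apolipoproteins, rose from 9.34 and 8.24 to 11.30 and 10.99 (2.35) and the lipid droplet protein PLIN2 from 10.30 and 10.46 to 12.07 and 12.18 (1.74), beside the rises of APOE and CD36. The lipoprotein receptor SCARB1 fell by 1.46 and the endothelial lipase LIPG was at least 7.19-fold lower. Of 15 measured lipid handling genes 5 were higher and 4 lower (33.3% and 26.7%), with ADIRF (-1.75), ANGPTL4 (-1.10) and FABP5 (-1.03) among the lower. Late enzymes of cholesterol synthesis thus stood on both sides.

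NF-kB subunits, inhibitors and chemokines were higher in 4 and lower in 8 of 24, a direction that turned to 5 higher and 3 lower with median centring. TNFAIP2, detected on 1 of the xenograft arrays, fell from 7.95 and 8.22 to 5.33 and 5.74 (-2.55), while NFKBIZ, an inducible regulator, rose from 6.64 and 6.89 to 8.61 and 8.22 (1.65). CCL5, a chemokine that interferon also induces, rose from 7.92 and 9.10 to 10.47 and 10.01 (1.74), or by 1.15 without the first and 2.32 without the second 2D7d replicate. AP-1 and immediate early genes were higher in 4 and lower in 4 of 18. FOSL1 fell from 10.92 and 11.03 to 8.26 and 8.63 (-2.53). FOS, detected on 1 of the 2D7d arrays, had 4.73 and 6.84 against 8.49 and 8.04 (2.48), which was 1.42 without the first 2D7d replicate, where it was undetected. FOSB and JUN differed by 0.05 and -0.26. The YAP and TEAD targets were higher in 2 and lower in 4 of 16, with YAP1 itself rising from 8.30 and 7.90 to 10.14 and 10.50 (2.22). Integrin and laminin subunits were called in 5 of 17, among them ITGAV, a partner of ITGB6, which rose from 7.86 and 7.86 to 10.93 and 11.13 (3.17), and ITGA5, the fibronectin receptor chain, which fell from 10.84 and 10.89 to 8.90 and 9.12 (-1.86).

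To see which differences also set the xenografts apart from 3D growth in culture, the xenografts were compared with MG7d. Here 1185 of the 10970 genes were called (10.8%), 650 higher (5.93%) and 535 lower (4.88%) in the xenografts. Since both comparisons share the xenograft arrays, they are given side by side. In all, 419 genes were higher and 277 lower in the xenografts than in both 2D7d and MG7d, and 4081 of the genes called against 2D7d were not called against MG7d.

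VIM stood 7.21 above 2D7d and 5.38 above MG7d, whose arrays were at 8.51 and 8.43. H19 (6.41), THBS1 (5.76, detected on 1 of the MG7d arrays), PMEPA1 (4.86) and TAGLN (4.64) were also higher than in MG7d by the differences given. COL5A1, IGFBP5 and CD36 were detected on neither MG7d array and were at least 125-fold, 23.6-fold and 12.5-fold higher. Of the falls, RARRES1 lay 6.27 and ALDH1A3 4.99 lower than in MG7d, where both genes were even above 2D7d (12.70 and 12.74 for RARRES1), and CALB2 (-5.12, with -5.62 from 2D7d) and DHRS3 (-5.05, with -5.58 from 2D7d) were lower than in both. By list, 34 of 40 interferon-stimulated genes were higher than in MG7d and 29 in both comparisons, 9 of 19 TGF-beta genes were higher, and 6 of 15 retinoid and 7 of 28 ERBB genes were lower. Of all genes 5.93% were higher and 4.88% lower than in MG7d.

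Other lists held fewer calls against MG7d than against 2D7d, as did all genes tested (10.8% against 43.8%). The counts below are to be read beside the 4.88% of all genes lower and 5.93% higher than in MG7d. Against MG7d 0 of 51 respiratory chain subunits and 1 of 74 mitochondrial ribosomal proteins were called (3 higher and 6 lower, and 5 higher and 23 lower, at an unadjusted p under 0.05 in limma), of the ATF4 list 3 were lower and 1 higher (13 and 1 unadjusted), and of mitosis 1 was lower (13 lower and 0 higher unadjusted). SLC3A2 (11.61 and 11.96 in MG7d), NDUFB9 (9.76 and 9.92), CLDN7 (10.42 and 10.59), LPP (11.11 and 10.75) and CDK6 (9.14 and 9.32) all had MG7d levels within 2-fold of the xenograft levels. NF-kB genes did not hold fewer calls, with 11 of 24 lower in the xenografts than in MG7d and 1 higher. Against 2D7d 8 were lower and 4 higher. CXCL8, a neutrophil chemokine, had 11.26 and 10.83 in MG7d against 7.13 and 6.99 in the xenografts and was undetected in 2D7d, at least 1.87-fold under the xenografts, a call lost without the second 2D7d replicate.

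**Figure D5:**
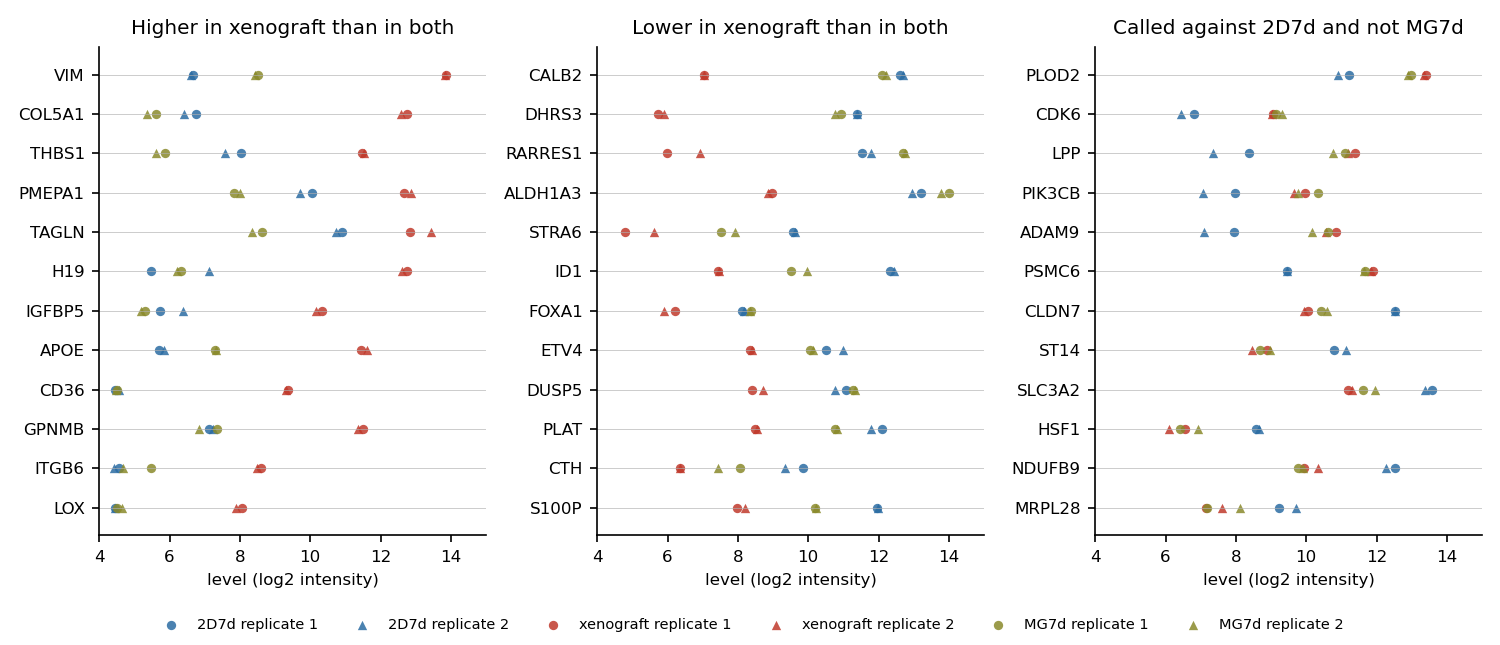
Levels (log2 intensity, horizontal axis) on the 2D7d (blue), xenograft (red) and MG7d (olive) arrays for 12 genes higher in the xenografts than in both cultures, 12 lower than in both and 12 called against 2D7d alone; each point is 1 array. VIM in MG7d (8.51 and 8.43) lies nearer to 2D7d than to the xenografts, while PLOD2 in MG7d (12.98 and 12.88) lies by the xenografts.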

How the data were processed

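Bead intensities of JIMT1 RNA on a human whole-genome BeadChip were used, with no background subtracted, as the authors deposited them, beside a detection p-value that the authors deposited for each probe. The deposited log2 values of the series matrix, which the authors made with lumi, stood under other probe IDs in 81.41% of rows and served only as an alternative after matching by rank. In R 4.3.3, limma 3.58.1 (neqc) corrected the background, added an offset of 16, quantile-normalized the 12 arrays and took log2. Probes were kept where both replicates of any group detected them (p under 0.01), and the brightest of the 14562 with 1 gene symbol stood for its gene. Symbols came from the platform annotation.

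A model was fitted to the 4 arrays compared (lmFit, eBayes, 2 residual and 5.152 prior degrees of freedom), with Benjamini-Hochberg adjustment over 10970 genes. With 2 arrays a group the median standard error was 0.18. Lower bounds set the mean of the detected group against the lowest detected signals of the other. The fit was tested on simulated data. Replicate numbers did not pair the samples.

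The genes named were the 15 largest changes in each direction among called genes detected on all 4 arrays, the 10 highest bounds in each direction, the 5 largest called members of each list in each direction with its core members, and the study's top genes. The members and lists were chosen with earlier results of these data known. Alternatives were other scalings, background settings, filters, probe rules, arrays in the fit, a replicate block and leaving out each array. Columns of no sample numbered 0.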

Additional observations from a re-analysis of the deposited data

How the results depend on the processing

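The count of called genes was 3055 (1792 higher, 1263 lower) without background correction and 1945 (1184 higher, 761 lower) with the series matrix, and the cause was not tested. With the adjusted p alone it was 7895, with 3834 lower, since no fold was asked for. With 12 arrays in the fit 1804 genes were higher, and 632 were called against MG7d. Leaving out 1 array gave 4413 to 5266 called genes, 2552 to 2981 higher, 1861 to 2285 lower and 1187 to 1285 against MG7d. Median centring called 3336 higher and 1611 lower.

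Same-numbered replicates did not deviate together (correlation 0.008 between the replicate differences of xenograft and 2D7d, with -0.116 to 0.874 over 15 pairs of groups), and the replicate block gave 4811 called genes (2789 higher, 2022 lower). No called difference of a named gene changed sign, while list medians near 0 did, such as fatty acid synthesis (0.24, and -0.15 without the second 2D7d replicate). Of the 460 named genes 336 were called. Of these 336, 98 lost their call with the series matrix, 67 with 12 arrays, 58 without background correction and 32 with median centring. Of 336 named and called genes 14 moved by over 1.5 times without a 2D7d array and 0 without a xenograft array. With 2 arrays a group, differences near the background are bounds only.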

Other observations

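Proteasome subunits were higher in 7 and lower in 4 of 30, with PSMC6 of the regulatory particle from 9.46 and 9.47 in 2D7d to 11.89 and 11.84 in the xenografts and PSMB3 of the core from 13.14 and 13.42 to 11.90 and 12.07. Lysosome and autophagy genes were higher in 4 and lower in 6 of 29. ATG12, a conjugation factor of autophagy, rose by 1.99 and ATG5, its partner, was at least 2.41-fold higher, while the channel MCOLN1 fell by 1.62. Apoptosis genes were higher in 9 and lower in 6 of 27, with 1 higher under the series matrix values. BIRC2, an inhibitor of caspases, rose from 7.92 and 7.98 to 10.22 and 10.06, and the BH3-only gene HRK fell from 9.45 and 9.36 to 6.72 and 6.57. Heat shock proteins were higher in 4 and lower in 2 of 22, with the chaperone HSP90AA1 rising by 2.09 and its regulator HSF1 falling by 2.30. NRF2 and glutathione genes were called in 6 of 23, with NFE2L2 rising by 1.72 and HMOX1, its target, falling by 1.64.

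Of 11 housekeeping genes only YWHAZ was called, rising from 12.44 and 11.61 to 13.66 and 13.57, and GAPDH and ACTB differed by 0.01 and 0.14, with -0.42 and -0.60 on the dimmer GAPDH probes. CFB, complement factor B, rose from 6.76 and 7.67 to 10.52 and 10.03 (3.06). HBA2, a globin gene, had 6.33 and 7.42 in 2D7d and 8.17 and 8.21 in the xenografts and lost its call without the first 2D7d replicate (0.76), and 4 of the erythroid markers were detected on no array.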
